A study of Mus musculus with 59 samples.

Results

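Embryoid bodies containing spinal motor neurons were exposed for 24 h to mouse serum and profiled on Affymetrix mouse exon arrays, and 7 of the 59 arrays of the study form the run whose titles start with HB9EBs and run from NCAR125 to HEMI131. They were chosen from the titles alone. Arrays HEMI129, HEMI130 and HEMI131 received serum of mice hemizygous for a human mutant SOD1 transgene, a model of amyotrophic lateral sclerosis (ALS), and are called carrier arrays. Arrays NCAR125, NCAR126, NCAR127 and NCAR128 received serum of wild-type littermates and are called non-carrier arrays. All serum donors came from crosses of the strains C57BL/6 and SJL, and the labels of this run give 9 weeks, which the methods tie to male donors before the onset of symptoms. The cells were the same on both sides of the comparison. They came from 1 line of mouse embryonic stem cells, HGB3, in which the motor neuron gene Hb9 (Mnx1) drives a green fluorescent reporter, and were differentiated with retinoic acid and hedgehog agonist. The comparison asks which genes of these cells differ in level after serum of carrier mice. The labels describe each serum as from 1 mouse but name no batch, so that the 7 arrays are taken as 1 run from their numbers.

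Embryoid bodies are mixed cultures, in which motor neurons lie beside progenitors and other cells. ATF4 is the transcription factor that cells make when amino acids run short or the endoplasmic reticulum (ER) is stressed, through phosphorylation of eIF2. It induces amino acid transporters, aminoacyl-tRNA synthetases, enzymes of asparagine, proline and serine synthesis, and further factors such as CHOP (the product of Ddit3). SREBP2 is the factor that raises cholesterol synthesis and uptake when membrane sterol is low. In a bulk sample such as this, fewer cells of a type and less RNA per cell cannot be told apart.

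No gene passed the test in this run. Among 19613 genes, limma called 0% at an adjusted p under 0.05, with the 3 carrier arrays set against the 4 non-carrier arrays and the spread estimated over all 59 arrays, while 2117 genes had an unadjusted p under 0.05. With array weights limma called 361 genes, and without HEMI129 it called 81. The smallest adjusted p was 0.0512, for Aldh18a1, which makes the proline precursor pyrroline-5-carboxylate. The values are therefore described gene by gene and by lists, using as a plain rule whether the 3 carrier arrays all lay below, or all above, the 4 non-carrier arrays. By that rule the carrier arrays lay below in 1499 genes (7.64%) and above in 1990 (10.1%), and these shares are the background for each count below. The median log2 difference of all genes was 0.03.

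The carrier arrays did not behave alike, which bears on each result that follows. The Pearson correlations across genes of the carrier array HEMI129 with the non-carrier arrays averaged 0.996, as did those among the 4 non-carrier arrays, whereas array HEMI130 averaged 0.992 and array HEMI131 averaged 0.994. Arrays HEMI130 and HEMI131 had higher values for dim genes: in the 4 dimmest of 10 equal groups of genes by level the median excess over the non-carrier mean was 0.16 and 0.13 on the log2 scale, against 0.01 for array HEMI129. In the brightest group the same medians were -0.06 and -0.03, against 0.00 for array HEMI129. The array medians were 156 on each of the 4 non-carrier arrays and on array HEMI129, 162 on array HEMI130 and 160 on array HEMI131. The carrier arrays lay above in 11.5% of the genes below the median level and in 8.79% of those over it. They lay below in 2.44% and 12.8% of these genes. Results are therefore also given without array HEMI130, where the carrier arrays lay below in 9.96% and above in 13.4% of all genes. Leaving out HEMI129 instead moved these shares further, to 14.9% below and 26.8% above. By the rule used, leaving out an array can keep or raise a count but cannot lower it. Counts given without an array, here and below, are therefore no test of a list. Without HEMI129, 15 ATF4-CHOP genes, 12 cytosolic synthetases and 11 amino acid transporters lay below, and 10 cholesterol genes above, as with all arrays. Hypoxia-inducible genes below rose from 10 to 14 and lysosomal genes from 10 to 13. The shares of all genes rose from 7.64% below and 10.1% above, so the unchanged counts stood against a larger background. The part of these level-dependent shifts in the results was not tested.

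**Figure D1:**
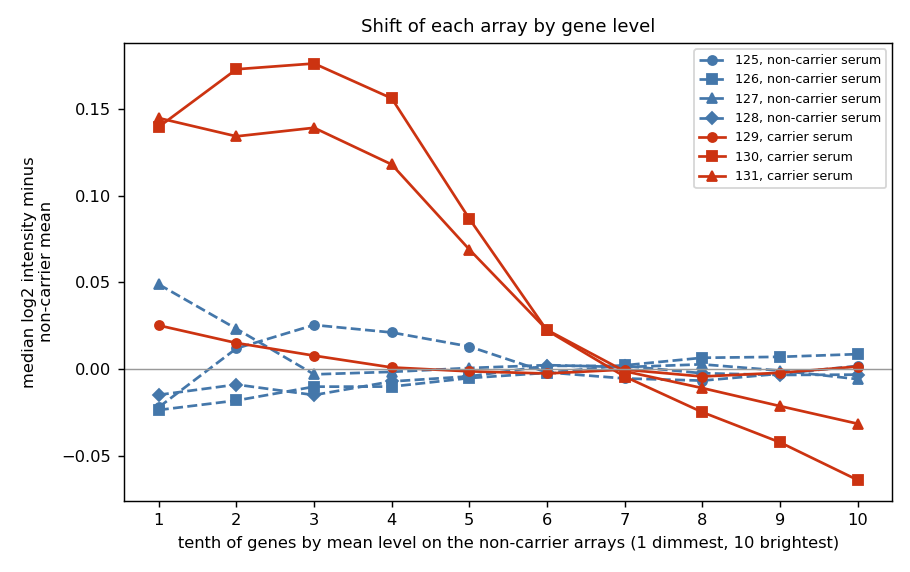
Median over genes of the log2 intensity minus the mean of the 4 non-carrier arrays (y axis), for 10 equal groups of genes ordered by level from dimmest to brightest (x axis), with 1 line per array. Carrier arrays HEMI130 and HEMI131 lie above 0 in the dimmer groups and below 0 in the brightest, up to 0.18, and array HEMI129 stays within 0.03 of 0.

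Markers of the labelled cell type were detected. Isl1, a factor of motor neuron fate, had a mean log2 intensity of 10.54 over the 7 arrays, within the range of 10.32 to 10.77 of the other 8 runs. Mnx1 and Lhx3, its partners in that fate, averaged 8.82 and 8.98, and Chat, which makes acetylcholine, averaged 9.02. The neurofilament gene Nefl reached 12.54. Olig2, which marks the motor neuron progenitors, averaged 9.02. Pou5f1, which marks pluripotent stem cells, averaged 5.17, below each of the other runs, the lowest of which was 5.24. Sod1 of the cells themselves read 11.58, 11.77, 11.74 and 11.76 on the non-carrier arrays and 11.80, 11.87 and 11.62 on the carrier arrays, so that the groups overlapped. The log2 difference was 0.05 ± 0.07 (SE), adjusted p = 0.82 by limma.

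Most of the measured genes known to act under ATF4 had lower values on the carrier arrays, although none passed the test. Of the 20 measured genes of the ATF4-CHOP stress response, 15 had all 3 carrier arrays below all 4 non-carrier arrays and none had them above, beside the 7.64% below among all genes. The median log2 difference of the list was -0.38. The smallest adjusted p among its members was 0.10. The list was written with earlier results of these data known, so that its direction is not independent evidence.

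Atf4 itself read 10.35, 10.58, 10.42 and 10.24 on the non-carrier arrays, in the order of their numbers, and 9.90, 9.91 and 9.90 on the carrier arrays. The carrier arrays were nearly equal and all below. The log2 difference was -0.50 ± 0.12 (SE), adjusted p = 0.10. Ddit3, which encodes CHOP, read 8.38, 8.59, 8.46 and 8.26 without and 7.96, 7.87 and 7.96 with carrier serum, again without overlap. Its log2 difference was -0.49 ± 0.19 (SE), adjusted p = 0.37. Atf3, a stress-induced factor downstream of ATF4, differed by -0.63 ± 0.22 (SE), with carrier arrays at 7.11, 7.56 and 7.33 and the lowest non-carrier array at 7.73. Cebpg, a dimer partner of ATF4, was at 8.87, 8.89 and 8.93 with carrier serum, below the lowest non-carrier value of 9.36.

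Of the targets, Chac1, which degrades glutathione, showed the largest difference in the list, -0.81 ± 0.21 (SE), adjusted p = 0.16. Its values were 10.27, 10.67, 10.55 and 10.07 on the non-carrier arrays and 9.18, 10.07 and 9.51 on the carrier arrays. Array HEMI130 was thus level with non-carrier array NCAR128 to 2 decimals, and the other carrier arrays lay well below. Eif4ebp1, which holds back cap-dependent translation, read 9.51, 9.95, 9.69 and 9.45 against 8.72, 9.09 and 8.98, and differed by -0.72 ± 0.16 (SE), adjusted p = 0.10. Trib3, a pseudokinase that feeds back on ATF4 and CHOP, was at 7.58, 7.99 and 7.78 with carrier serum, where the lowest non-carrier array was at 8.08. The feedback genes Sesn2 and Ppp1r15a, the latter a subunit of the eIF2 phosphatase, differed by -0.45 and -0.35. Ddit4, an inhibitor of mTORC1, differed by -0.57 and Herpud1, which acts in ER-associated degradation, by -0.51. The 5 members of the list whose groups overlapped were Stc2 at -0.35, Nupr1 at -0.20, Gdf15 at 0.01, Fgf21 at 0.04 and Cebpb at 0.16.

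**Figure D2:**
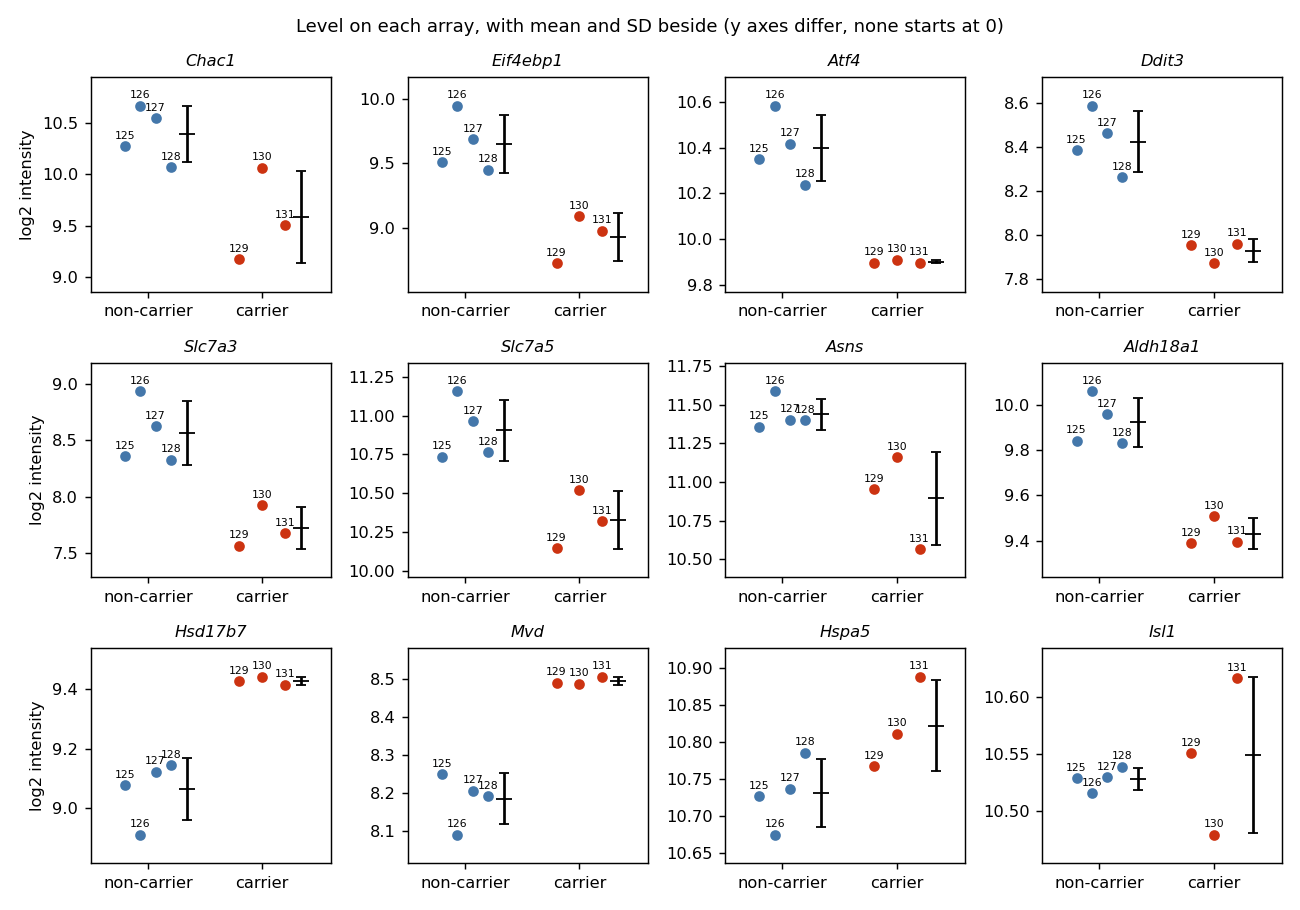
Log2 intensity of 12 genes (y axes, which differ and do not start at 0) on the 4 non-carrier and 3 carrier arrays (points, labelled by the number of the array), with the mean and SD of each group beside the points. Chac1, Eif4ebp1, Atf4, Ddit3, Slc7a3, Slc7a5, Asns and Aldh18a1 lie lower on all carrier arrays, Hsd17b7 and Mvd lie higher, and Hspa5 and Isl1 overlap.

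The members also shared an order of arrays within each serum group. Non-carrier array NCAR126 held the highest of the 4 non-carrier values for 16 of the 20 members, against 26.6% of all genes, and array NCAR128 the lowest for 14. Among the carrier arrays, array HEMI129 was the lowest for 14 members, against 43.5% of all genes, and array HEMI130 the highest for 14, against 39.9%. Set against the non-carrier mean of each gene, the median of the list was -0.51 on array HEMI129, -0.24 on array HEMI130 and -0.36 on array HEMI131, and it ranged from -0.14 to 0.15 over the non-carrier arrays. The members are thus not independent counts of the same event. The largest shift lay on array HEMI129. The part of the level-dependent shift of arrays HEMI130 and HEMI131 in this list was not tested. Without array HEMI130, 16 of the 20 members had the remaining carrier arrays below.

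ATF4 with a C/EBP partner binds a composite element, and the letters TGATGCAA were searched on both strands in RefSeq promoter windows of build GRCm38.p6, 250 bases before to 50 after the start of each gene. They occurred in 0.85% of the 13522 array genes with a window, and in 6 of the 19 ATF4-CHOP genes with one, namely Atf3, Chac1, Nupr1, Fgf21, Herpud1 and Vldlr. Of these, Nupr1 and Fgf21 overlapped between the serum groups. The looser form TGATGNAA, which contains the first, occurred in 3.72% of array genes and added Trib3. Many members are listed because they are known ATF4 targets, so that these counts describe the list. The stretches around the matches are shown on the gene's strand for 6 genes whose carrier arrays lay below, chosen after their values were seen, with the matched letters in capitals. Other genes of the amino acid lists with a match, such as Herpud1, Pycr1, Iars, Tars and Gars, are not printed. TTGCATCA and TTACATCA are the same motifs read on the opposite strand.
Chac1, chr2:119351003-119351102, plus strand: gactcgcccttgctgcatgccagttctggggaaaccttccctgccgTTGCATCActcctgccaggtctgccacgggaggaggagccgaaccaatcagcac
Atf3, chr1:191183390-191183489, minus strand: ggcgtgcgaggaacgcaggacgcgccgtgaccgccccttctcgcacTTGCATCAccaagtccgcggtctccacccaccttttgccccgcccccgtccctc
Slc7a11, chr3:50443626-50443725, minus strand: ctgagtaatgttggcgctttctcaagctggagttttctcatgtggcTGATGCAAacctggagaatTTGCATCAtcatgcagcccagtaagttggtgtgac
Slc1a4, chr11:20332664-20332763, minus strand: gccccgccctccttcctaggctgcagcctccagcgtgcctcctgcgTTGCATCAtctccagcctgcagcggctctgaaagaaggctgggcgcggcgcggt
Asns, chr6:7693179-7693278, minus strand: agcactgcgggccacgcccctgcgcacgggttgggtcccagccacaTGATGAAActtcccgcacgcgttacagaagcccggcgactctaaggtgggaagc
Trib3, chr2:152344011-152344092, minus strand: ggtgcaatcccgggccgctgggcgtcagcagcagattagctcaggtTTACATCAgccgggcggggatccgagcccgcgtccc

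Slc7a11, the cystine importer, holds the letters TGATGCAA on both strands. They occurred in 3 of the 14 amino acid transporters with a window, namely Slc7a7, Slc7a11 and Slc1a4. Of the 20 amino acid transporters measured, 11 had all carrier arrays below and none above, with a list median of -0.16. The largest differences were those of Slc7a3 and Slc7a11. Slc7a3, a carrier of cationic amino acids, read 8.36, 8.94, 8.63 and 8.33 without and 7.56, 7.93 and 7.67 with carrier serum. Its log2 difference was -0.84 ± 0.21 (SE), adjusted p = 0.13. Slc7a11 read 6.50, 7.08, 6.81 and 6.44 against 5.43, 6.30 and 5.88, a difference of -0.84 ± 0.23 (SE), adjusted p = 0.18, at a level below that of most genes. Slc7a5, the light chain of the leucine transporter LAT1, read 10.74, 11.16, 10.97 and 10.76 against 10.15, 10.52 and 10.32, a difference of -0.58 ± 0.13 (SE), adjusted p = 0.10. Its heavy chain Slc3a2 differed by -0.42, the arginine carrier Slc7a1 by -0.61, the neutral amino acid carrier Slc1a4 by -0.53 and the glycine transporter Slc6a9 by -0.33, each without overlap. Without HEMI130, 13 of the 20 had the carrier arrays below. Of the 20, 17 had a negative and 3 a positive difference. Slc43a1 at 0.04, Slc36a1 at 0.09 and Slc7a8 at 0.10 overlapped.

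Cytosolic aminoacyl-tRNA synthetases charge tRNAs for protein synthesis in the cytosol, and 12 of the 19 measured had all carrier arrays below, with none above and a list median of -0.22. Cars, the cysteinyl enzyme, was the lowest at -0.40 ± 0.09 (SE), adjusted p = 0.10. It read 9.53, 9.72, 9.62 and 9.51 on the non-carrier arrays and 9.07, 9.45 and 9.06 on the carrier arrays. Lars differed by -0.38, Gars by -0.32, Tars by -0.30, Mars by -0.28 and Iars by -0.27. By contrast Kars at -0.03 and Hars at 0.12 overlapped. The mitochondrial synthetases, which are encoded by separate genes for the most part, had a median of -0.04, with 0 of 16 below and 1 above. For the cytosolic enzymes array HEMI130 was the nearest to the non-carrier arrays, being the highest carrier array for 15 of 19, and without it 17 of 19 had the carrier arrays below. TGATGCAA occurred in the windows of 4 of the 12 cytosolic genes that had one, and in none of 13 mitochondrial ones.

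Within amino acid synthesis the difference lay in a subset of enzymes. Asns, asparagine synthetase and a standard ATF4 target, read 11.36, 11.59, 11.40 and 11.40 without and 10.95, 11.16 and 10.57 with carrier serum. Its log2 difference was -0.54 ± 0.13 (SE), adjusted p = 0.11. Aldh18a1, with the smallest p of the run, read 9.84, 10.06, 9.96 and 9.83 against 9.39, 9.51 and 9.40, a difference of -0.49 ± 0.09 (SE). The proline enzyme Pycr1 differed by -0.45, Gpt2, which makes alanine, by -0.34, and Cth, which makes cysteine from cystathionine, by -0.68. With Asns and Aldh18a1 these were the 5 of 16 enzymes of that list with carrier arrays below, and Cbs, the step before Cth, had them above at 0.19. The list median was -0.05.

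Of the 17 genes of serine synthesis and one-carbon metabolism, 6 had carrier arrays below, 2 had them above, and the median was 0.00. The mitochondrial folate enzyme Mthfd2 read 8.83, 9.18, 9.02 and 8.75 against 8.12, 8.57 and 8.22, a difference of -0.64 ± 0.15 (SE), adjusted p = 0.10. Psat1 differed by -0.43, and the mitochondrial enzymes Shmt2, Aldh1l2 and Mthfd1l by -0.32, -0.32 and -0.20. Their cytosolic counterparts Shmt1 at 0.11 and Mthfd1 at 0.00 overlapped, and Aldh1l1 at 0.28 had carrier arrays above. Phgdh, the entry enzyme of serine synthesis, was at -0.02.

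Genes of the other arms of the ER stress response had values on both sides. Of 20 ER chaperones and degradation genes, 2 had the carrier arrays below and 2 above, with a median of 0.03. Hspa5, the chaperone BiP, read 10.73, 10.67, 10.74 and 10.79 without and 10.77, 10.81 and 10.89 with carrier serum, and the groups overlapped. Its log2 difference was 0.09 ± 0.08 (SE), adjusted p = 0.67. Xbp1, the factor of the IRE1 arm, differed by 0.05 ± 0.05 (SE), adjusted p = 0.74. The heat shock proteins had a median of 0.04, with 1 of 15 below and 3 above. A p that misses the threshold does not show that these genes were equal.

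**Figure D3:**
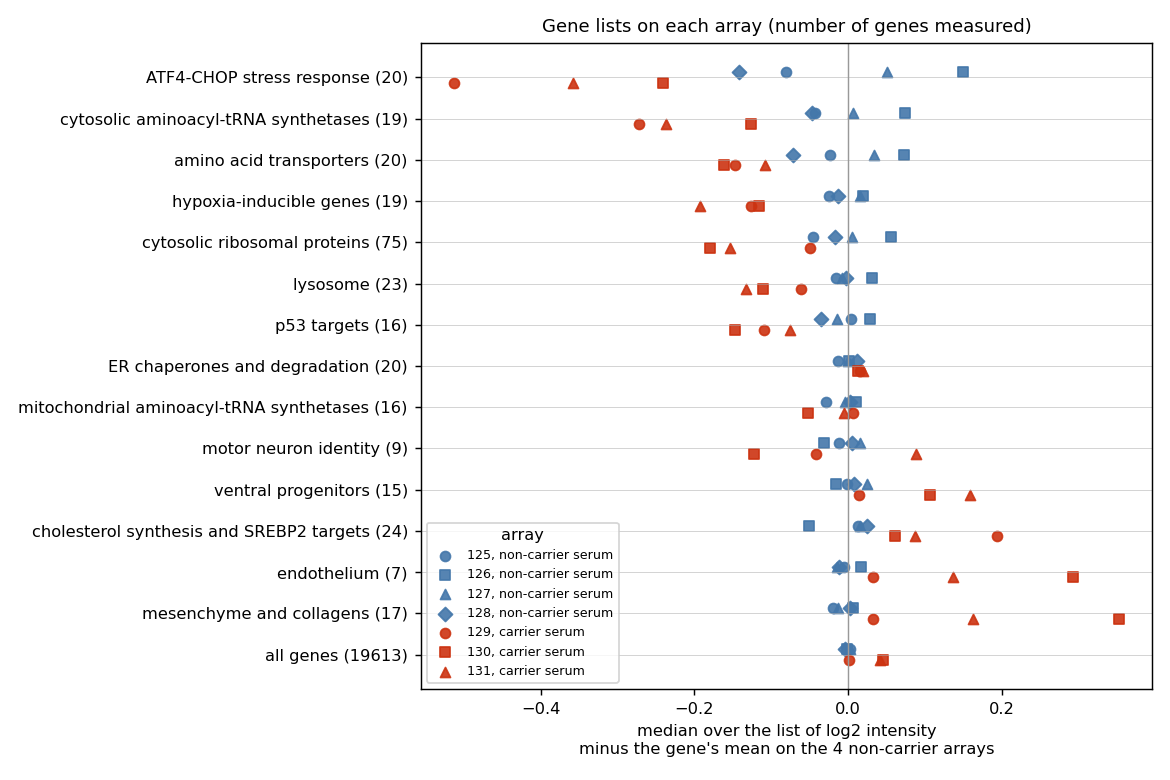
Median over each gene list of the log2 intensity minus the gene's mean on the 4 non-carrier arrays (x axis), for 15 lists with the number of genes measured (y axis), 1 point per array. In the ATF4-CHOP list the carrier arrays lie between -0.51 and -0.24 with array HEMI129 lowest, whereas for mesenchyme and endothelium array HEMI129 lies at 0.03 and array HEMI130 farthest out, at 0.35 and 0.29.

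Cholesterol genes lay the other way. Of 24 measured genes of cholesterol synthesis and SREBP2 targets, 10 had all carrier arrays above and none below, beside 10.1% above among all genes, and 22 had a positive difference. The median was 0.11. After centring each array on its median, 6 of the 24 had the carrier arrays above, beside 7.62% of all genes, and with quantile normalization 14 had them above, beside 8.48%. Without array HEMI130 the count was 14. Hsd17b7, a late enzyme of the pathway, read 9.08, 8.91, 9.12 and 9.14 without and 9.43, 9.44 and 9.42 with carrier serum. Its log2 difference was 0.36 ± 0.09 (SE), adjusted p = 0.10. Mvd, of the mevalonate branch, read 8.25, 8.09, 8.21 and 8.19 against 8.49, 8.49 and 8.51, a difference of 0.31 ± 0.10 (SE), adjusted p = 0.28. Mvk of the same branch differed by 0.20 and Stard4, a carrier of sterol, by 0.25, both with carrier arrays above. Idi1 was at -0.14 with overlap, and Hmgcs1 was not analysed here. Array HEMI129 held the highest carrier value for 15 of the 24 genes, and non-carrier array NCAR126, the highest array for ATF4-CHOP genes, held the lowest non-carrier value for 16. The sterol letters TCACCCCA occurred in 1 of 15 windows of this list and in 1.69% of array genes.

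Fatty acid genes under the sister factor SREBP1 were among the LXR targets. Of the 10 LXR targets measured, 1 had carrier arrays below and 2 above, beside 7.64% and 10.1% of all genes. The list median was 0.04, and these counts are not read as a result about the list. Scd1, the stearoyl desaturase, differed by 0.28 ± 0.09 (SE) and Fasn, the fatty acid synthase, by 0.19 ± 0.09 (SE), both with carrier arrays above. Abca1, the cholesterol exporter, read 7.74, 7.80, 7.65 and 7.68 without and 7.59, 7.55 and 7.46 with carrier serum, all below, a difference of -0.18 ± 0.07 (SE), adjusted p = 0.36. The other LXR target with a known role in export, Abcg1, was at -0.09 with overlap. The fatty acid oxidation genes had a median of -0.07, with 4 of 18 below.

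Hypoxia-inducible genes formed a further lower group, with 10 of 19 below and none above and a median of -0.18, although none of them had an unadjusted p under 0.05 with the spread of all 59 arrays. In the fit of only the 7 arrays 13 of the 19 did, among 3750 genes in all, and none passed after adjustment. Ndrg1 differed by -0.34 ± 0.24 (SE), Ero1l, the ER oxidase, by -0.30 ± 0.16 (SE), and the glycolytic regulator Pfkfb3 by -0.27 ± 0.16 (SE). The glucose transporter Slc2a1 read 12.42, 12.49, 12.49 and 12.45 without and 12.25, 12.29 and 12.21 with carrier serum. The standard errors use the spread over all 59 arrays, and within each serum the values of Slc2a1 lay close together. Vegfa, which responds both to hypoxia and to ATF4, differed by -0.21 without overlap. Without HEMI130, 11 of the 19 lay below. Only 2 of the 19 were under the median level, and of the genes over it 12.8% had carrier arrays below. With quantile normalization 7 of the 19 lay below, beside 1579 of all genes. After centring each array on its median 11 did, beside 1836.

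Of 23 lysosomal genes, 10 had the carrier arrays below and 1 above, with a median of -0.11. Only 2 of the 23 were under the median level, and of the genes over it 12.8% had carrier arrays below. Set against the non-carrier mean, the list median was -0.06 on array HEMI129, -0.11 on array HEMI130 and -0.13 on array HEMI131. With quantile normalization 8 lay below, beside 1579 of all genes. Npc2, which binds cholesterol in the lysosome, differed by -0.23 ± 0.07 (SE), and the protective protein gene Ctsa by -0.17 ± 0.06 (SE). Ppt1 was the member above, at 0.20. Without HEMI130, 11 lay below and 1 above. Among 16 p53 targets, 6 lay below and none above, including Cdkn1a at -0.27, Plk2 at -0.25 and Btg2 at -0.22, while Mdm2 at -0.11 and Bax at 0.14 overlapped. Of 17 NRF2 targets, 1 lay below and 4 above, with a median of -0.00. Hmox1, the heme oxygenase, differed by -0.43 ± 0.15 (SE), and Pgd, of the pentose phosphate pathway, by 0.26 ± 0.06 (SE), adjusted p = 0.10.

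Other lists had their shift on arrays HEMI130 and HEMI131 rather than on array HEMI129. The 75 cytosolic ribosomal proteins, which are among the brightest genes, had a median of -0.14, with 18 below and none above. Of the 75, 0 were under the median level, and of all genes over it 12.8% had carrier arrays below. Set against the non-carrier mean, their median was -0.05 on array HEMI129, -0.18 on array HEMI130 and -0.15 on array HEMI131. Rpl35a, with the lowest difference of the list, read 10.70, 10.96, 10.82 and 10.71 without and 10.63, 10.26 and 9.94 with carrier serum, and many of these genes have near-identical copies that leave their values uncertain. Of 36 subunits of complex I of the respiratory chain, 5 lay below and none above, with a median of -0.09. Only 2 of the 36 were under the median level, and of the genes over it 12.8% had carrier arrays below. This count is therefore not read as a result about the list. Ndufa6 had the lowest difference, -0.72 ± 0.17 (SE), adjusted p = 0.10, with array HEMI129 at 9.05 among the non-carrier arrays and arrays HEMI130 and HEMI131 at 8.26 and 7.88. Mesenchyme and collagen genes, 13 of 17 of which lay below the median level, had a median of 0.19, and the corresponding medians were 0.03, 0.35 and 0.16. Of the 17, 6 had carrier arrays above and 2 below, among the latter Acta2 at -0.68. Col6a1 read 6.59, 6.66, 6.62 and 6.68 without and 6.75, 7.22 and 6.95 with carrier serum. The summed intensity of that list spanned 2364 to 2459 on the non-carrier arrays and 2331 to 2560 on the carrier arrays, and no member was at 0, the lowest value being 15.9. For the endothelial list, all 7 genes of which lay below the median level, the medians were 0.03, 0.29 and 0.14, and the summed intensity spanned 367 to 375 on the non-carrier and 382 to 442 on the carrier arrays. These are the arrays with higher values for dim and lower values for bright genes, and the share of that shift in these lists was not tested.

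The motor neuron identity genes did not separate the groups as a list. Of 9 measured, 1 lay below and 2 above, with a median of -0.03. Chat read 9.08, 9.05, 9.10 and 9.10 without and 8.94, 8.95 and 8.95 with carrier serum, a difference of -0.14 ± 0.06 (SE), adjusted p = 0.41. The choline transporter Slc5a7 and Isl2 lay above, at 0.22 and 0.16. Lhx3 differed by -0.12, Mnx1 by -0.10, Olig2 by -0.09 and Isl1 by 0.02, each with overlap. The summed intensity of the list spanned 5839 to 6055 on the non-carrier and 5810 to 6178 on the carrier arrays.

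Of 15 ventral progenitor genes, 5 lay above and 1 below, with a median of 0.08. Shh, the ligand that patterns the ventral neural tube, read 7.82, 7.90, 7.81 and 7.90 against 8.09, 8.31 and 8.13, a difference of 0.32 ± 0.14 (SE), adjusted p = 0.44. Sox2, of neural progenitors, differed by 0.26 ± 0.08 (SE) and Nes by 0.19 ± 0.08 (SE), while Pax6 lay below at -0.10. The summed intensity of the list was 5638, 6306 and 6207 on arrays HEMI129, HEMI130 and HEMI131, and the highest non-carrier array was at 5602. Set against the non-carrier mean, the list median was 0.01 on array HEMI129, 0.11 on array HEMI130 and 0.16 on array HEMI131. Array HEMI129 was the lowest carrier array for 11 of the 15 genes, against 43.5% of all genes. The part of the level-dependent shift of arrays HEMI130 and HEMI131 in this list was not tested. Of 11 hedgehog pathway genes measured, 4 lay below and 1 above, with a median of -0.08. Hhip, a hedgehog target that binds the ligand, differed by -0.42 ± 0.16 (SE), and the receptor and target Ptch1 by -0.11, both below. Gli1 at -0.13 overlapped. Of 11 BMP and TGF-beta targets measured, 3 lay above and 0 below, with a median of 0.08. Among them Id4, a target of BMP signals, differed by 0.27 ± 0.06 (SE), adjusted p = 0.10, with carrier arrays above.

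Of 21 subunits of glutamate receptors and their auxiliary proteins, 8 lay above and 1 below. The NMDA receptor subunit Grin3a differed by 0.24 and Grin2a by 0.21, and the AMPA receptor subunits Gria1, Gria4 and Gria3 by 0.18, 0.14 and 0.12. Cacng3, an auxiliary subunit, lay below at -0.37. The list medians were 0.06 and 0.11 on arrays HEMI130 and HEMI131 and -0.00 on array HEMI129. Of 19 genes mutated in inherited ALS, 2 lay below and 2 above, with a median of -0.01 and none at an unadjusted p under 0.05. Nek1 and Hnrnpa1 lay below at -0.13 and -0.07, and the RNA-binding gene Hnrnpa2b1 was among those above, at 0.12.

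Since no gene passed the test, the largest differences were also taken among genes without overlap and with a level above the median, a rule set after the values had been seen. The 12 lowest were Slc7a3, Chac1, Eif4ebp1, Acta2, Mthfd2, Atf3, Hist2h4, Slc7a1, Hist1h2bb, Cebpg, Slc7a5 and Serpinf1. Of these, 8 belong to the ATF4, transporter and one-carbon lists above. Acta2, smooth muscle actin, is on the mesenchyme and collagen list, whose median was higher. It read 8.19, 8.28, 8.10 and 8.48 without and 7.61, 7.62 and 7.54 with carrier serum, a difference of -0.68 ± 0.26 (SE). Serpinf1, a secreted neurotrophic factor also known as PEDF, differed by -0.57 ± 0.14 (SE), adjusted p = 0.11. The histone genes Hist2h4 and Hist1h2bb belong to families of near-identical copies and are uncertain, and array HEMI130 decided their values, at 7.39 and 6.54 with the other carrier arrays at or above 8.15 and 7.61.

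The 12 highest were Tnfaip8l3, Abp1, Nrgn, Cebpe, Psapl1, Tcf15, Cldn15, Krtcap3, Fam83d, Hsd17b7, Plcxd3 and Fam117a. Their differences ran from 0.33 to 0.54, and thus reached less far than the lowest. Tnfaip8l3, a carrier of phosphoinositides, read 7.39, 7.56, 7.43 and 7.4 without and 7.66, 8.32 and 7.98 with carrier serum. For Tnfaip8l3, Abp1 and Cebpe array HEMI130 was the highest array, at 8.32, 8.40 and 8.52, whereas Fam83d at 8.12, 8.20 and 8.15 and Hsd17b7 were even across the carrier arrays. Nrgn, a neuronal calmodulin-binding protein, differed by 0.43 ± 0.20 (SE).

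The last question was whether the run differed from the rest of the study. When the carrier minus non-carrier difference of this run was set against the mean of those of the other 8 runs, limma called 0% of the 19613 genes, with 852 at an unadjusted p under 0.05 and a smallest adjusted p of 0.99. No gene is thus called particular to the run. One of the other runs is labelled 10 weeks rather than 9, an age at which the methods name donors of a Huntington's disease model, although its labels describe the same mutants and littermates as elsewhere. Without that run limma again called 0 genes, with 996 at an unadjusted p under 0.05 and a smallest adjusted p of 0.93. Atf4 was at -0.50 here and at -0.24 on average in the other runs, which ranged from -0.65 to 0.07, and it was negative in 8 of 9 runs. Slc7a5 was at -0.58 here and ranged from -1.10 to 0.11 elsewhere, and Chac1 at -0.81 here and from -1.73 to 0.15. For Aldh18a1 the other runs averaged -0.23 and the difference from them was -0.26 ± 0.10 (SE). Hsd17b7, positive in all 9 runs, was at 0.36 here and between 0.02 and 0.31 elsewhere. The median of the ATF4-CHOP list was -0.38 here, and -0.67 in arrays NCAR107 to HEMI112, -0.48 in NCAR133 to HEMI138, -0.44 in NCAR139 to HEMI144, -0.25 in the run of 10 weeks, -0.12 in NCAR101 to HEMI106, -0.05 and -0.03 in the runs titled HB9MNs and motorneuron, and 0.14 in NCAR114 to HEMI124. For cholesterol genes the median of 0.11 lay within the range of -0.03 to 0.14 of the other runs. The median residual SD of a gene in the run was 0.09, against 0.07 to 0.15 in the other runs, and the number of genes passing the test in a single run was between 0 and 64 there.

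**Figure D4:**
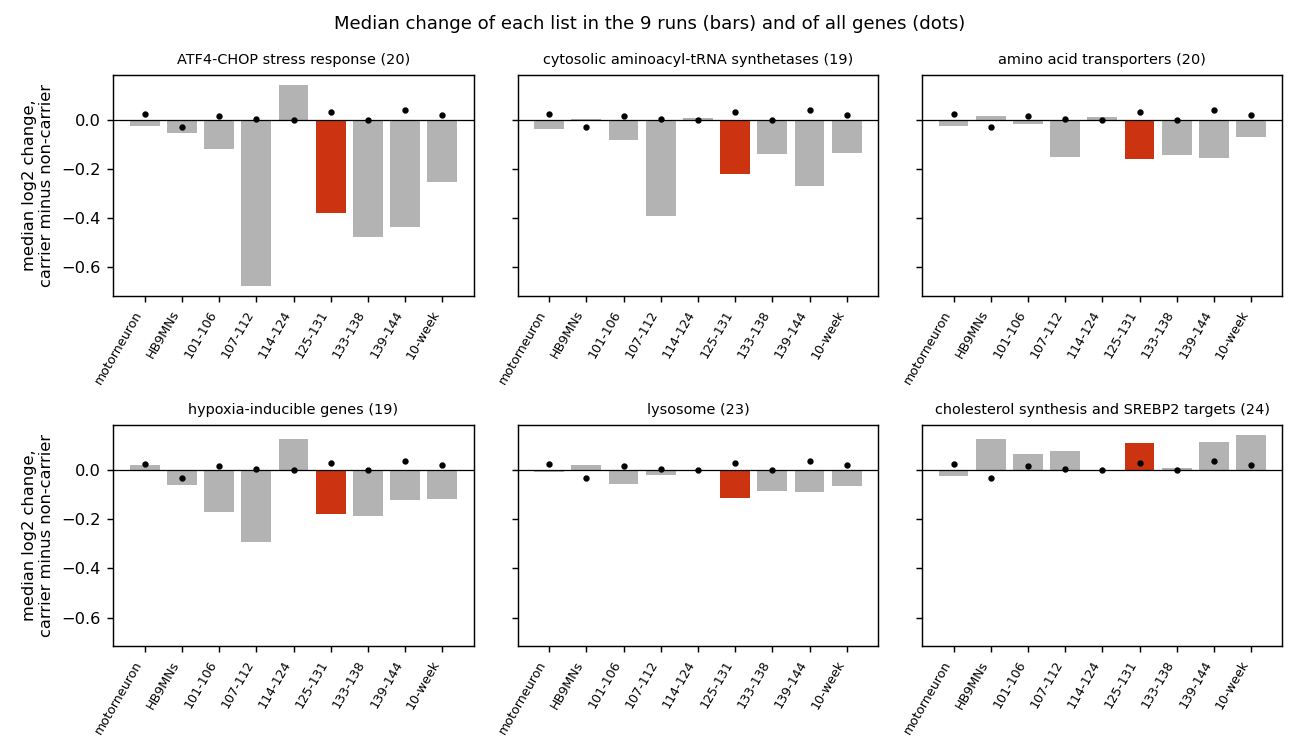
Median log2 difference between carrier and non-carrier arrays of 6 gene lists (bars, y axis) in each of the 9 runs (x axis), with the run of arrays NCAR125 to HEMI131 in red and the median of all genes as dots. The ATF4-CHOP bar of the run, at -0.38, lies between those of other runs, which span -0.67 to 0.14.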

How the data were processed

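The 59 arrays were mouse exon arrays of embryoid bodies or motor neurons. The authors summarised them with RMA as the mean of all exons of a gene, per the study's methods, and deposited linear intensities for 19613 genes under gene symbols. The 4-gene correction that the methods name was not seen in these intensities. The genome build was not given in the sources used here.

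Log2 intensities (pseudocount 0, no filter) were fitted with limma 3.58.1 in R 4.3.3 as 18 group means of 9 runs and both sera, with 41 residual degrees of freedom and eBayes. Tests were two-sided, and Benjamini-Hochberg adjusted p-values covered the 19613 genes, at 0.05. The contrasts were carrier minus non-carrier in arrays NCAR125 to HEMI131, and that difference minus the mean of the other 8 runs. The procedure was tested on simulated data. P-values rest on the spread within run and serum over all 59 arrays, not on that of the 7 arrays alone. This spread may be technical in part, since no source ties a culture to each array. Depth has no meaning for arrays, and their number limits the precision.

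The rule for named genes took the 12 largest changes past the test in each direction, the 5 largest differences from the other runs in each direction, up to 8 members past the test per list, 13 defining genes, and Sod1, Olig2, Mnx1, Isl1 and Lhx3. As no gene passed, all other genes were named after their values were seen. The members and lists were chosen with earlier results of these data known. Of 830 list entries in 46 lists, 805 were measured. No member of any list passed the test. Promoters came from RefSeq windows (GRCm38.p6) matched by symbol for 13522 genes. Some named items are not reported here.

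Alternatives covered the arrays fitted, centring, quantile normalization, a filter on dim genes, the variance model, array weights, 4 marker genes as covariates, a pseudocount of 16, the parting of arrays NCAR114 to HEMI124, the runs compared with, and each array left out. The rule on overlap between arrays, the results without HEMI130 and HEMI131 together and the contrast without the run of 10 weeks were added after the data were seen.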

Additional observations from a re-analysis of the deposited data

Results flagged for a closer look

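Among the 4 non-carrier arrays, the lowest and highest were tested for their distance from the others in 38 named genes and in the medians of 46 lists, where chance would mark about 1 in 20, and 2 were marked. For Sod1, array NCAR125, at 11.58, lay below the other non-carrier arrays by 0.870 of the group's range. For the median of the cholesterol and SREBP2 list, NCAR126 lay below the other non-carrier arrays by 0.853 of the range.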

How the results depend on the processing

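Against 0 genes called in the run, centring on array medians, the trended robust variance model, a pseudocount of 16 and the parting of arrays NCAR114 to HEMI124 each called 1 gene. Leaving out genes below the median level called 30 (6 higher), the 4 marker genes as covariates 180 (72 higher) and array weights 361 (228 lower), the weights being 0.80, 0.70 and 1.06 for HEMI129, HEMI130 and HEMI131 and 1.83 to 2.33 for the non-carrier arrays. Of the lower genes called, 28 with array weights and 23 with the covariates were in the 6 ATF4 and amino acid lists. Leaving out 1 array gave 0 to 81 called genes, with 81 (30 higher) without HEMI129, of which 1, Aldh18a1, was in those lists. The cause was not tested. The fit of only the 7 arrays and quantile normalization called 0. The contrast with the other runs called 0 under each alternative that was run.

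Genes with carrier arrays all below numbered 1723 to 2917 with 1 array left out (2917 without HEMI129, 2336 without HEMI131) and 4524 without HEMI130 and HEMI131. Genes with carrier arrays all above numbered 2503 to 5261 (5261 without HEMI129) and 4586 without both, and 883 with dim genes left out. Without both arrays, 17 amino acid transporters lay below and 23 cholesterol genes above, and centring gave 6 cholesterol genes above. Isl1 turned to -0.0067 with centring, and leaving out 1 array gave it -0.013 (HEMI131) to 0.056. Sod1 ranged from -0.0057 (without HEMI130) to 0.12, and Xbp1 from -0.015 (without HEMI131) to 0.092.

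No paired analysis was possible because the carrier and non-carrier arrays of this run share no replicate number. With 3 carrier arrays, of which HEMI130 and HEMI131 stand apart by level, differences of dim and of very bright genes cannot be told apart from the shift of those arrays.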
